A study of Homo sapiens with 6 samples.

Results

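The transcripts described here are a set of well-known target genes of YAP and TAZ, measured by RNA-seq in BJ cells, a long-used line of fibroblasts from human foreskin. The set named CTGF, CYR61, ANKRD1, AMOTL2, AXL, F3, CRIM1, NT5E, PTPN14 and MYOF. Its rows were taken by gene symbol, and the set was chosen with earlier results of these data known. Of these 10 genes, 9 were taken from the 14168 genes of the deposited table, and ANKRD1 was not analysed here. The cells, of WT genotype by the labels, had been given an siRNA against agrin (3 libraries) or a control siRNA (3 libraries), and both groups were grown in RPMI medium with serum. The sequence, dose and duration of the siRNAs are not given by the labels. Nothing in the labels ties the libraries of a group to separate cultures, so the spread between them may be technical.

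YAP and TAZ are co-activators that carry no DNA-binding domain of their own and reach their target genes through the TEAD transcription factors. The Hippo kinases LATS1 and LATS2 phosphorylate both proteins and keep them out of the nucleus, while a stiff matrix, cell spreading and actin tension favour their entry. In fibroblasts the targets include secreted matricellular proteins, cell surface receptors and inhibitors that feed back on YAP. Agrin, a large secreted proteoglycan that carries heparan sulfate chains, is a component of basement membranes, and in other cell types it has been described as a matrix signal that acts on YAP. The comparison of agrin siRNA with control siRNA libraries asked how these targets stood when the agrin transcript was reduced.

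TEAD factors recognise a short core, GGAATG, which reads CATTCC on the other strand. The core was searched on both strands in the 250 bases before each RefSeq transcript start (GRCh38.p14), where 7 of the 9 genes matched at least 1 promoter, in 9 windows. It was found in windows of 4 of these genes, CTGF, AMOTL2, AXL and PTPN14, and 11.9% of all 35116 promoter windows held it. CTGF carried 3 cores, and 0.0826% of all windows held 3 or more. The CTGF window is shown because CTGF is the classic reporter of TEAD activity and was the target gene that fell. The CTGF window lies at chr6:131951373-131951622 on the minus strand. It is printed 5′ to 3′ with the cores in capitals.
CTGF: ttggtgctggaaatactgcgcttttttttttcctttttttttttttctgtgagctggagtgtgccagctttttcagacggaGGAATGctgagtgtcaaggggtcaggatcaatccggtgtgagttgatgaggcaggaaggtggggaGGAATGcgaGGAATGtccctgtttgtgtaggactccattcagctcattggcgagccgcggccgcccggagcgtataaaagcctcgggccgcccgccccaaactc

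For AMOTL2, AXL and PTPN14, 30 bases around the single core are shown, because AXL rose while AMOTL2 and PTPN14 did not pass the threshold. The AMOTL2 stretch lies at chr3:134374499-134374528 on the minus strand, and starts of the cores lie 69 bases before the transcript start in AMOTL2, 212 in AXL and 200 in PTPN14. The AXL stretch lies at chr19:41226531-41226560 on the plus strand and the PTPN14 stretch at chr1:214551785-214551814 on the minus strand. AMOTL2 and AXL each have another RefSeq start, nearer the upstream end of the annotated gene, whose window held no core. These windows lie at chr3:134375418-134375667 for AMOTL2 and chr19:41218973-41219222 for AXL. The distances given for these genes are thus counted from a start farther inside the gene. Capitals mark the core as it reads on the printed strand.
AMOTL2: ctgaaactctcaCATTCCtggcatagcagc
AXL: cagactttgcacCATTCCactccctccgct
PTPN14: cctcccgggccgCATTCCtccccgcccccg

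The windows of F3, NT5E and MYOF held no GGAATG in either orientation. The F3 window held the AP-1 motif TGANTCA at 2 places, searched on both strands and found in 6.57% of all windows, and the other windows of the target genes held none. The CArG box, the site of serum response factor, was in none of the 9 windows and in 1.16% of all windows. These matches describe letters in these windows and say nothing of the factors' binding.

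The values are a scaled CPM (the deposited CPM, taken by the authors over a library size other than the listed total). The reads recovered from the values, summed over the listed genes, came to 44321473 to 48246613 per library in the agrin siRNA group. In the control siRNA group they came to 42736368 to 44139864. Values of single libraries are given in the order of replicates 1, 2 and 3. AGRN itself stood at 290, 297 and 265 scaled CPM in the agrin siRNA libraries, against 744, 804 and 790 in the control siRNA libraries. The groups did not overlap, and 36.4% ± 2.13 (SD, n = 3) of the control mean was left. All 9 fibroblast markers examined were present, with sums of 48397 to 50718 scaled CPM in the agrin siRNA libraries and 50613 to 53403 in the control siRNA libraries. Of the markers of other cell types, the endothelial CDH5 was listed at 0 in all libraries, and the epithelial EPCAM, CDH1, KRT5 and KRT14 averaged under 1 in both groups. The summed level of the 5 epithelial markers was 26.6 to 36.7 scaled CPM in the agrin siRNA libraries and 40.4 to 47.5 in the control siRNA libraries, nearly all of it KRT19. The endothelial TEK, the immune marker CD14 and the melanocyte marker PMEL averaged 8.45, 2.53 and 1.35 scaled CPM in the agrin siRNA group and 7.52, 1.51 and 1.45 in the control siRNA group. KRT19 (limma adjusted p = 0.0158) was lower and CD14 (limma adjusted p = 0.0039) higher in the agrin siRNA group. Of the 9 fibroblast markers, 5 were not called by limma and 4 were lower (44.4%, against 13.5% of all genes tested). The lower ones were FAP (log2 fold change -0.45, limma adjusted p = 0.000384), PDGFRB (-0.36, adjusted p = 0.00326), LUM (-0.31, adjusted p = 0.0107) and the collagen COL1A1 (-0.27, adjusted p = 0.0429). The FAP and PDGFRB calls held in all 6 fits that left out a library, the LUM call in 5 (adjusted p = 0.0587 without control siRNA replicate 1) and the COL1A1 call in 2 (adjusted p = 0.172 when agrin siRNA replicate 3 was left out). The part of these markers in the results was not tested, and muscle markers were not analysed here. In bulk RNA, fewer cells of a type and less RNA per cell cannot be told apart.

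The 9 target genes did not move as a block. NT5E, F3 and AXL rose in the agrin siRNA libraries by 2.49-fold, 1.53-fold and 1.33-fold. CTGF fell to 0.546 of the control level on the same fitted scale, while CYR61, its closest relative in the set, had a fold change of 1.01. AMOTL2, MYOF, PTPN14 and CRIM1 had fold changes of 0.846, 0.891, 0.900 and 0.918 and did not pass the threshold, an adjusted p under 0.05 by limma with Benjamini-Hochberg adjustment over all 13206 genes tested. By that threshold 3 of the 9 genes were higher, against 15.2% of all genes tested, and 1 was lower, against 13.5% of all genes tested. In all, 4 of 9 (44.4%) were called, against 28.7% of all genes tested (28.3% by edgeR on the reads recovered from the values, which called the same 4 target genes). The same 3 and 1 genes were those whose libraries did not overlap between the groups, 4 of 9 against 45.2% of all genes tested. The median log2 fold change was -0.12 over the 9 genes and -0.00012 over all genes tested. The median size of the change regardless of sign was 0.24 over the 9 genes and 0.11 over all genes tested. With only 9 genes these shares describe the set and show nothing particular to it.

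**Figure D1:**
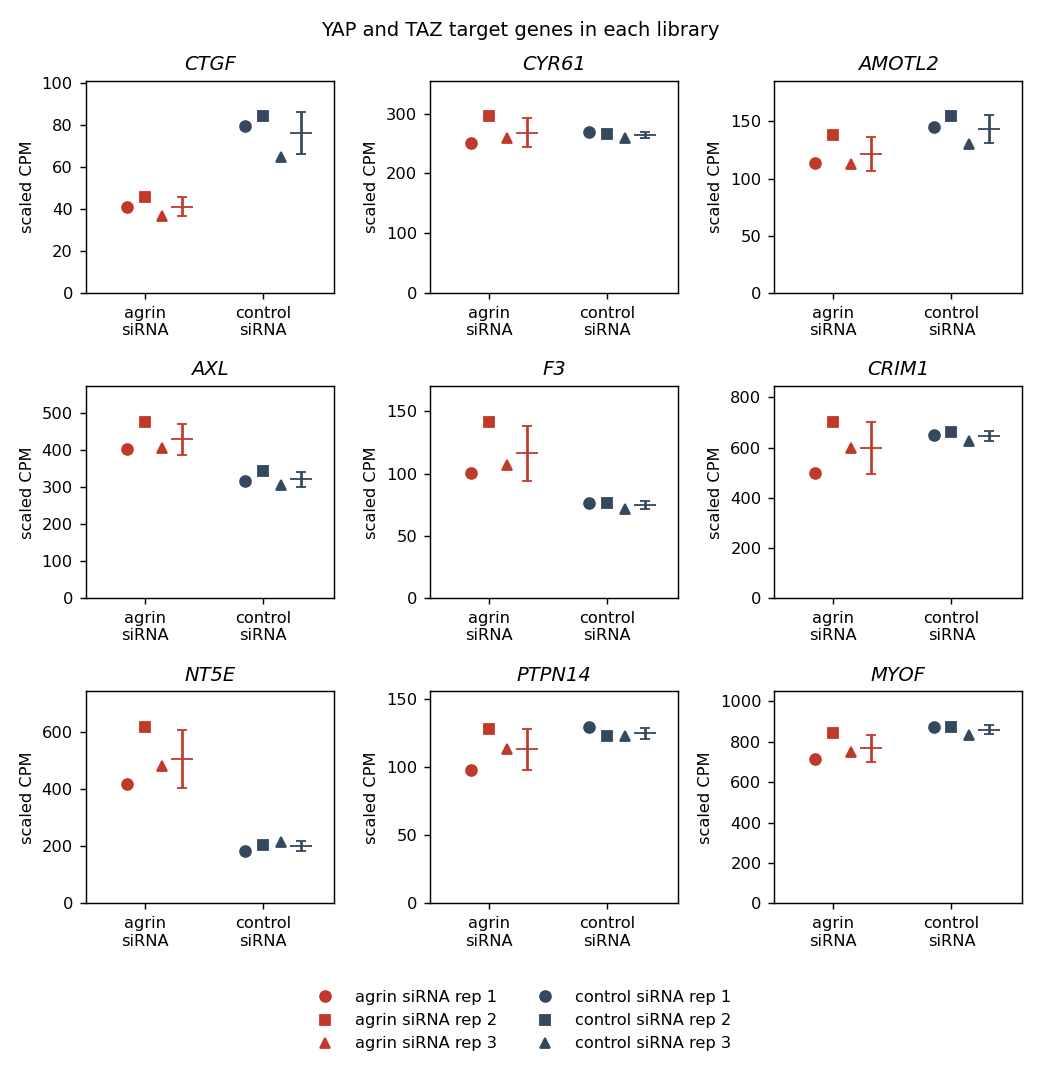
Scaled CPM (vertical axes, from 0) of the 9 target genes in the 3 agrin siRNA libraries (red, left) and the 3 control siRNA libraries (dark blue, right), with the mean and SD beside the points. The agrin siRNA libraries lie above the control siRNA libraries for NT5E, F3 and AXL and below them for CTGF, and the groups overlap for the other 5 genes.

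CTGF and CYR61 encode secreted matricellular proteins of the CCN family (CCN2 and CCN1), which bind integrins and heparan sulfate and are the targets most often used to read YAP and TAZ activity. CTGF stood at 41.1, 45.9 and 36.8 scaled CPM in the agrin siRNA libraries, against 79.5, 84.2 and 64.9 in the control siRNA libraries. Every agrin siRNA library lay below every control siRNA library, with 1621 to 1972 reads on the gene in the agrin siRNA libraries and 2669 to 3317 in the control siRNA libraries. The means were 41.3 ± 4.54 in the agrin siRNA group and 76.2 ± 10.1 in the control siRNA group (SD, n = 3 each), a log2 fold change of -0.87 (SE 0.10, limma adjusted p = 0.000348). CTGF (ENSG00000118523.5) spans chr6:131948176-131951373 on the minus strand and shares 195 exonic bases with the annotated antisense transcript AL133346.1. The strand setting of the counting is not given in the sources used here, so reads of the shared stretch cannot be told apart.

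CYR61 did not pass the threshold. It stood at 250, 295 and 259 scaled CPM in the agrin siRNA libraries, against 269, 266 and 259 in the control siRNA libraries. The lowest and the highest of the 6 values were both agrin siRNA libraries. The log2 fold change was 0.02, with a 95% interval from -0.12 to 0.15 (limma adjusted p = 0.863). CYR61 (ENSG00000142871.16) lies at chr1:85580761-85583962 on the plus strand and overlaps no other gene in GENCODE 29.

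Since both genes were measured in the same libraries, their difference in response is the change of their ratio. The ratio of CTGF to CYR61 in scaled CPM was 0.164, 0.155 and 0.142 in the agrin siRNA libraries, and 0.296, 0.317 and 0.250 in the control siRNA libraries. The groups did not overlap. The log2 ratio averaged -2.69 ± 0.104 in the agrin siRNA group and -1.80 ± 0.173 in the control siRNA group (SD, n = 3 each), a difference of -0.89. A two-sided exact permutation test gave p = 0.1, the smallest value that 3 libraries against 3 allow. Of the other CCN genes, NOV (CCN3) rose to 105 ± 10.4 scaled CPM in the agrin siRNA group, against 61.3 ± 7.90 in the control siRNA group (SD, n = 3 each; log2 fold change 0.77, limma adjusted p = 0.000442). WISP1 (CCN4) had a log2 fold change of 0.46 and did not pass (limma adjusted p = 0.104), though it passed without agrin siRNA replicate 2 (adjusted p = 0.000649; up to 0.319 with other libraries left out).

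NT5E had the largest change of the set. It encodes CD73, the enzyme on the cell surface that converts AMP to adenosine and a standard marker of mesenchymal cells. It stood at 419, 619 and 483 scaled CPM in the agrin siRNA libraries, against 184, 204 and 216 in the control siRNA libraries. The lowest agrin siRNA library was above the highest control siRNA library, and the spread within the agrin siRNA group was wide. The means were 507 ± 103 in the agrin siRNA group and 201 ± 16.5 in the control siRNA group (SD, n = 3 each), a log2 fold change of 1.31 (SE 0.12, limma adjusted p = 9.9e-05). NT5E (ENSG00000135318.11) spans chr6:85449584-85495791 on the plus strand and overlaps no other gene in GENCODE 29.

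Among genes that act with CD73, the adenosine receptor ADORA2B fell by 0.29 on the log2 scale (limma adjusted p = 0.0437). It averaged only 7.35 ± 1.01 scaled CPM in the agrin siRNA group and 9.09 ± 0.469 in the control siRNA group (SD, n = 3 each). Its call held in 1 of 6 fits that left out a library, and its adjusted p reached 0.153 without agrin siRNA replicate 3. ADA, which breaks adenosine down, and the receptors ADORA1 and ADORA2A had log2 fold changes of 0.26, 0.07 and 0.47 and did not pass. ADORA2A passed without agrin siRNA replicate 2 (adjusted p = 0.000877; up to 0.299 with other libraries left out) and by DESeq2, and ADA passed without agrin siRNA replicate 3 (adjusted p = 0.0300; up to 0.194 with other libraries left out). The sign of the ADORA1 value turned without agrin siRNA replicate 1.

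F3 encodes tissue factor, the cell surface receptor that starts blood coagulation when it binds factor VII. It stood at 100, 142 and 107 scaled CPM in the agrin siRNA libraries, against 76.5, 76.5 and 71.6 in the control siRNA libraries. All agrin siRNA libraries were above all control siRNA libraries, and replicate 2 stood apart from the other 2 agrin siRNA libraries. The means were 116 ± 22.3 in the agrin siRNA group and 74.8 ± 2.85 in the control siRNA group (SD, n = 3 each), a log2 fold change of 0.62 (SE 0.11, limma adjusted p = 0.00283). F3 (ENSG00000117525.13) lies at chr1:94529225-94541800 on the minus strand.

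The tissue factor pathway inhibitors TFPI and TFPI2 rose as well. TFPI, which blocks the complex of tissue factor and factor VII, averaged 92.5 ± 3.79 scaled CPM in the agrin siRNA group and 76.9 ± 0.538 in the control siRNA group (SD, n = 3 each; log2 fold change 0.26, limma adjusted p = 0.00164). TFPI2, a related protease inhibitor of the matrix, averaged 68.1 ± 1.75 scaled CPM in the agrin siRNA group and 47.5 ± 3.42 in the control siRNA group (log2 fold change 0.52, limma adjusted p = 0.00021). F2RL1, the protease-activated receptor that tissue factor complexes can cleave, rose by 0.59 on the log2 scale (limma adjusted p = 0.012). The F2RL1 call was lost without control siRNA replicate 1 (adjusted p = 0.0549) and without control siRNA replicate 2. The thrombin receptor F2R had a log2 fold change of 0.07 and did not pass (limma adjusted p = 0.314).

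AXL is a receptor tyrosine kinase of the TAM family, activated by the ligand GAS6. It stood at 402, 477 and 406 scaled CPM in the agrin siRNA libraries, against 316, 343 and 305 in the control siRNA libraries. The groups did not overlap. The means were 428 ± 41.9 in the agrin siRNA group and 321 ± 19.5 in the control siRNA group (SD, n = 3 each), a log2 fold change of 0.41 (SE 0.07, limma adjusted p = 0.00243). AXL (ENSG00000167601.11) spans chr19:41219203-41261766 on the plus strand and shares 67 exonic bases with the antisense transcript AC011510.1.

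GAS6, the ligand of AXL, rose with its receptor. It averaged 399 ± 26.5 scaled CPM in the agrin siRNA group and 336 ± 8.85 in the control siRNA group (SD, n = 3 each; log2 fold change 0.25, limma adjusted p = 0.00693). PROS1, the other TAM ligand, and TYRO3, another TAM receptor, had log2 fold changes of -0.15 and 0.11 and did not pass (limma adjusted p = 0.0545 and 0.177). All agrin siRNA libraries lay below all control siRNA libraries for PROS1. It was just past the threshold without agrin siRNA replicate 2 (limma adjusted p = 0.0494, and up to 0.172 with other libraries left out). PROS1 also passed by edgeR, with a filter on a mean of at least 5 and with median-of-ratios scaling. It passed too when rescaled without mitochondrial and the 10 most abundant genes, and stayed uncalled in 12 of 17 alternatives. MERTK, the remaining receptor of the family, was at or under 0.0758 in every library and was too low to test.

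**Figure D2:**
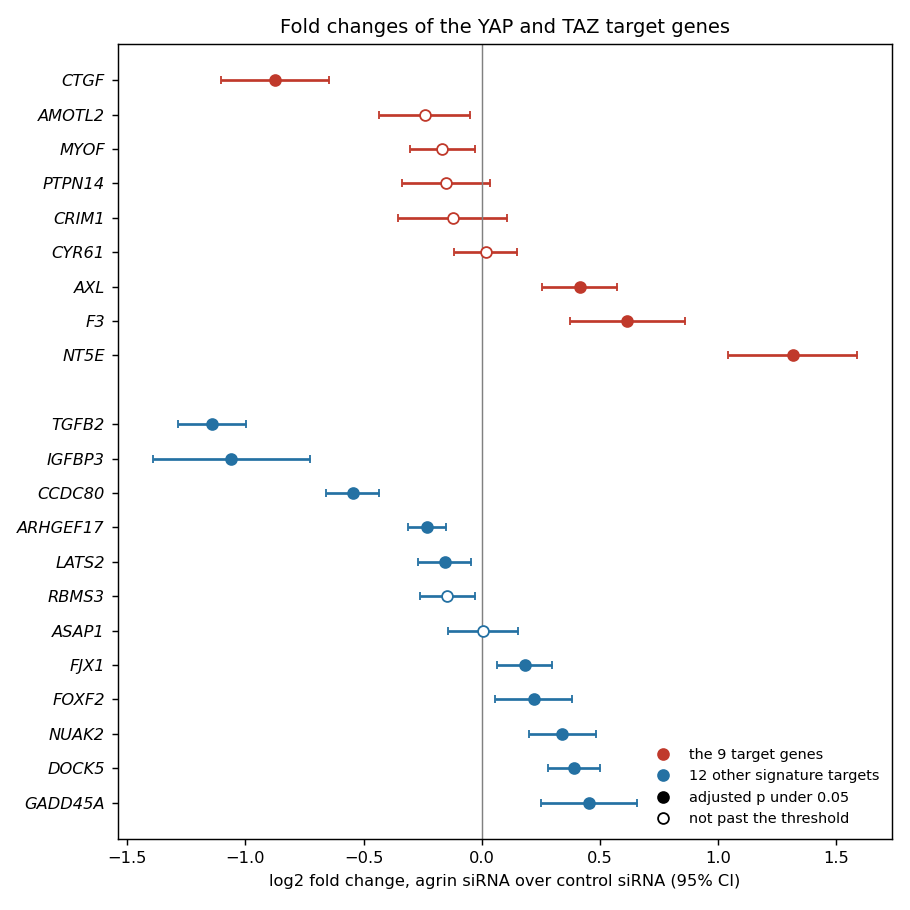
Log2 fold change of agrin siRNA over control siRNA (horizontal axis) with its 95% interval for the 9 target genes (red) and 12 other genes of a published YAP and TAZ signature (blue), filled where the adjusted p was under 0.05. NT5E (1.31) and TGFB2 (-1.14) lie at the ends, and genes of both sets lie on both sides of 0.

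AMOTL2 and PTPN14 encode proteins that hold YAP back, so as targets they close a feedback loop. AMOTL2, an angiomotin that binds YAP at cell junctions and on actin, stood at 113, 138 and 112 scaled CPM in the agrin siRNA libraries, against 145, 154 and 130 in the control siRNA libraries. The groups overlapped through agrin siRNA replicate 2, the highest of its group, and control siRNA replicate 3, the lowest. The log2 fold change was -0.24 with a 95% interval from -0.44 to -0.05 before adjustment (limma adjusted p = 0.0624). AMOTL2 passed without agrin siRNA replicate 2 (log2 fold change -0.34, adjusted p = 0.00106) and without control siRNA replicate 3 (adjusted p = 0.0493), and the adjusted p reached 0.208 when control siRNA replicate 2 was left out. It shares 187 exonic bases with the pseudogene RPL39P5 on its own strand, so reads there are uncertain. AMOTL2 (ENSG00000114019.14) spans chr3:134355874-134375479 on the minus strand.

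The other angiomotins fell. AMOT averaged 15.5 ± 1.25 scaled CPM in the agrin siRNA group and 24.5 ± 2.22 in the control siRNA group (SD, n = 3 each; log2 fold change -0.64, limma adjusted p = 0.000478). AMOTL1 averaged 119 ± 5.54 in the agrin siRNA group and 137 ± 4.82 in the control siRNA group (SD, n = 3 each; log2 fold change -0.21, limma adjusted p = 0.0093), and its adjusted p was 0.0558 without control siRNA replicate 1.

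PTPN14, a tyrosine phosphatase that binds YAP and keeps it in the cytoplasm, stood at 97.9, 128 and 113 scaled CPM in the agrin siRNA libraries, against 130, 123 and 122 in the control siRNA libraries. Agrin siRNA replicate 2 lay among the controls and the other agrin siRNA libraries below them. The log2 fold change was -0.15 with a 95% interval from -0.34 to 0.03 (limma adjusted p = 0.197), and it was -0.25 without agrin siRNA replicate 2 (adjusted p = 0.00505; up to 0.512 with other libraries left out). PTPN21, its closest relative, stood at -0.10 on the log2 scale and did not pass (limma adjusted p = 0.236). PTPN14 (ENSG00000152104.11) spans chr1:214348696-214552449 on the minus strand and shares exonic bases with AL929236.1 and with the pseudogene KRT18P12, so reads there are uncertain.

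CRIM1, a transmembrane protein that binds bone morphogenetic proteins, stood at 497, 704 and 597 scaled CPM in the agrin siRNA libraries, against 650, 664 and 625 in the control siRNA libraries. One agrin siRNA library lay above the control siRNA libraries and the other 2 below them. The log2 fold change was -0.12 with a 95% interval from -0.35 to 0.11 (limma adjusted p = 0.402). It was 0.0051 with agrin siRNA replicate 1 left out, and -0.25 with agrin siRNA replicate 2 left out, where it passed (adjusted p = 0.0119; up to 0.964 with other libraries left out). CRIM1 (ENSG00000150938.9) spans chr2:36355926-36551135 on the plus strand and shares 177 exonic bases with the antisense transcript AC007378.1.

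MYOF, myoferlin, is a ferlin of the plasma membrane that takes part in membrane fusion and repair. It stood at 712, 841 and 749 scaled CPM in the agrin siRNA libraries, against 871, 874 and 834 in the control siRNA libraries. The groups overlapped only through agrin siRNA replicate 2, which lay above control siRNA replicate 3. The log2 fold change was -0.17 with a 95% interval from -0.30 to -0.03 before adjustment (limma adjusted p = 0.0685), and it was -0.23 without agrin siRNA replicate 2 (adjusted p = 0.0017; up to 0.195 with other libraries left out). DYSF, dysferlin, a related ferlin, fell to 2.85 ± 0.225 scaled CPM in the agrin siRNA group, against 4.04 ± 0.373 in the control siRNA group (SD, n = 3 each; log2 fold change -0.44, limma adjusted p = 0.00862). MYOF (ENSG00000138119.16) spans chr10:93306429-93482317 on the minus strand.

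The agrin siRNA libraries differed among themselves in one direction over the whole set. Agrin siRNA replicate 2 had the highest value of its group for 9 of the 9 genes, CTGF included, where the same library was the highest for 38.6% of all genes tested. Agrin siRNA replicate 1 had the lowest value for 7 of the 9 genes and agrin siRNA replicate 3 for the other 2, where these libraries were the lowest for 36.8% and 24.3% of all genes tested. Among the control siRNA libraries, replicate 3 had the lowest value for 8 of the 9 genes, where it was the lowest for 37.7% of all genes tested. The median deviation of the 9 genes from the control mean, in log2, was -0.27, 0.12 and -0.11 in the agrin siRNA libraries, and 0.02, 0.03 and -0.05 in the control siRNA libraries. The SD of the log2 values over the 3 libraries had a median of 0.170 in the agrin siRNA group and 0.0552 in the control siRNA group for the 9 genes, and of 0.0803 in the agrin siRNA group and 0.0508 in the control siRNA group for all genes tested. Without agrin siRNA replicate 2, 3 of the 9 genes were higher and 5 lower, CTGF with AMOTL2, MYOF, PTPN14 and CRIM1. Leaving out that library also raised the calls over the whole table, to 19.3% higher and 19.6% lower of the genes tested. Without agrin siRNA replicate 1, 3 were higher and 1 lower. AGRN itself was also highest in agrin siRNA replicate 2 of its group, at 297 scaled CPM beside 290 in replicate 1 and 265 in replicate 3. The part of the remaining AGRN level in these differences was not tested.

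**Figure D3:**
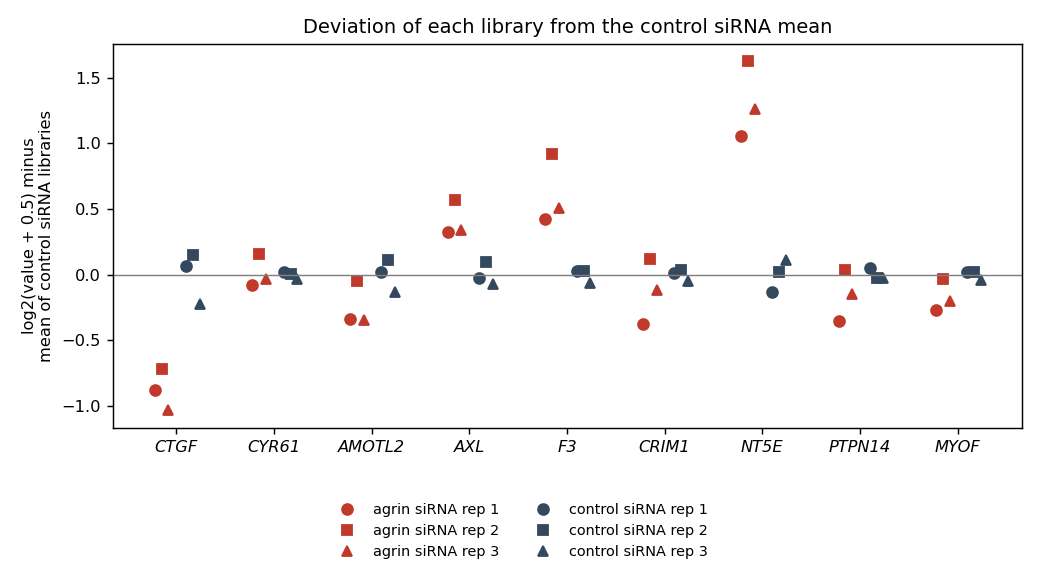
Log2(value + 0.5) of each library minus the mean of the control siRNA libraries (vertical axis) for the 9 target genes, agrin siRNA in red and control siRNA in dark blue, with a marker shape for each replicate number. Agrin siRNA replicate 2 (red squares) is the highest of the red points for each of the 9 genes.

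Per kilobase of annotated exon (the union of all GENCODE 29 transcripts of a gene), the targets covered a wide range of levels. In the agrin siRNA group the order was NT5E (112 ± 22.6 scaled CPM per kilobase), CYR61 (109 ± 9.75), MYOF (90.6 ± 7.82), CRIM1 (84.1 ± 14.5), AXL (83.1 ± 8.13), F3 (40.4 ± 7.76), AMOTL2 (20.3 ± 2.47), CTGF (17.6 ± 1.94) and PTPN14 (6.03 ± 0.808), as mean ± SD with n = 3. In the control siRNA group it was CYR61 (108 ± 2.03), MYOF (101 ± 2.61), CRIM1 (90.7 ± 2.77), AXL (62.3 ± 3.78), NT5E (44.4 ± 3.65), CTGF (32.6 ± 4.30), F3 (26.0 ± 0.992), AMOTL2 (23.9 ± 2.05) and PTPN14 (6.66 ± 0.216), on the same scale. In the agrin siRNA group the libraries of NT5E overlapped those of CYR61, those of MYOF, CRIM1 and AXL overlapped from each gene to the next, and so did those of AMOTL2 and CTGF, while the other neighbours did not overlap. In the control siRNA group the libraries of F3 and AMOTL2 overlapped and those of the other neighbours did not. The place of NT5E and of CTGF in the order thus differed between the groups, while PTPN14 was the lowest in both. Any exons that BJ cells do not use would count in the length and lower the value. PTPN14 has the longest exon union of the set, 18756 bases, and which of its exons BJ cells use was not tested.

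**Figure D4:**
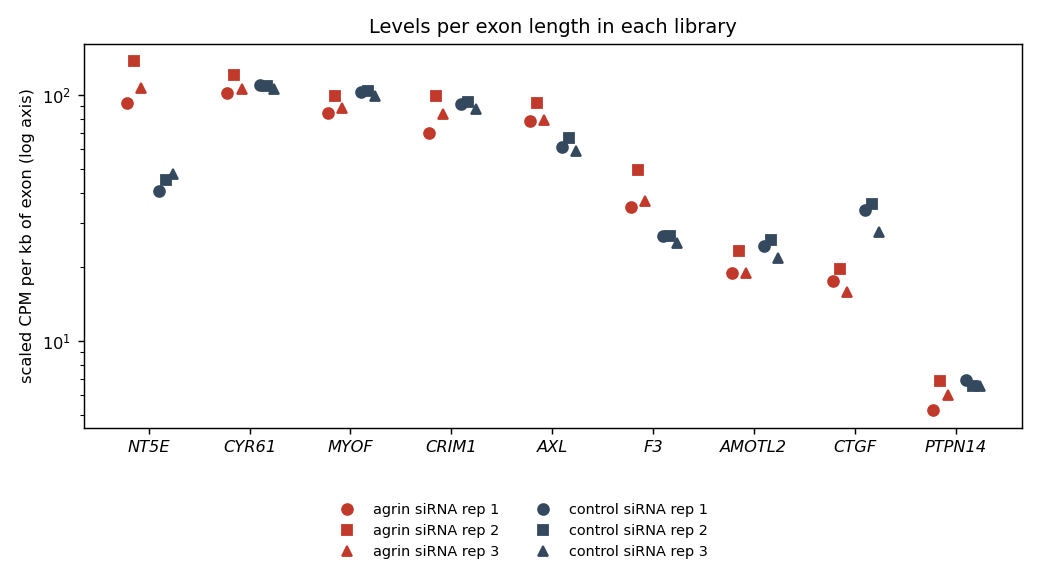
Scaled CPM per kilobase of exon (log axis) of the 9 target genes in each library, agrin siRNA in red and control siRNA in dark blue, ordered by the agrin siRNA mean. NT5E (112 against 44.4) and CTGF (17.6 against 32.6) are the genes whose groups lie farthest apart.

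The same signature that lists these genes as targets names 12 others. Of these 12 genes tested, 5 rose, 5 fell and 2 did not pass (83.3% called, against 28.7% of all genes tested), with a median log2 fold change of -0.07. TGFB2, a transforming growth factor ligand, fell to 14.4 ± 0.851 scaled CPM in the agrin siRNA group, against 32.3 ± 1.99 in the control siRNA group (SD, n = 3 each; log2 fold change -1.14, limma adjusted p = 7.12e-06). IGFBP3, a secreted binding protein of insulin-like growth factors, fell to 839 ± 224 in the agrin siRNA group, against 1714 ± 120 in the control siRNA group (log2 fold change -1.06, limma adjusted p = 0.000882). CCDC80, a secreted matrix protein (-0.55), ARHGEF17 (-0.23), and LATS2, the Hippo kinase (-0.16), were the other lower genes on the log2 scale. The higher genes were GADD45A, a stress-induced growth arrest gene (0.45), DOCK5, a Rac exchange factor (0.39), NUAK2, an AMPK-related kinase (0.34), the transcription factor FOXF2 (0.22) and FJX1, a secreted relative of a fly Hippo regulator (0.18). ASAP1 (0.0037) and RBMS3 (-0.15) did not pass (limma adjusted p = 0.973 and 0.0609). The RBMS3 libraries did not overlap between the groups, with those of agrin siRNA lower. RBMS3 passed by edgeR (adjusted p = 0.0465) and by limma when rescaled without mitochondrial and the 10 most abundant genes (adjusted p = 0.0314).

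Calls of the small changes in that list depended on single libraries. LATS2 passed in 2, FJX1 in 3 and FOXF2 in 1 of 6 fits that left out a library, with adjusted p up to 0.153 and 0.175 for LATS2 and FOXF2 without control siRNA replicate 1 and up to 0.117 for FJX1 without control siRNA replicate 2. The other 7 called genes of the list passed in all 6 of these fits. Over all 17 alternatives LATS2 and FJX1 kept their calls in 12 each and FOXF2 in 6. Agrin siRNA replicate 2 was the highest of its group for 7 of the 12 genes, where it was the highest for 38.6% of all genes tested. Replicate 1 of that group was the highest for 4 of the 12 and replicate 3 for 1.

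Of the factors that carry the signal to the targets, WWTR1, which encodes TAZ, fell to 68.0 ± 4.66 scaled CPM in the agrin siRNA group, against 90.4 ± 2.72 in the control siRNA group (SD, n = 3 each; log2 fold change -0.41, limma adjusted p = 0.000617). YAP1 averaged 257 ± 16.0 in the agrin siRNA group and 271 ± 6.19 in the control siRNA group and did not pass (log2 fold change -0.08, limma adjusted p = 0.267). TEAD1 was at -0.23 and did not pass (limma adjusted p = 0.0808). It passed by DESeq2 and without agrin siRNA replicate 2 (adjusted p = 0.0005; up to 0.197 with other libraries left out). TEAD3 fell (-0.18, limma adjusted p = 0.0111), a call lost without control siRNA replicate 1 (adjusted p = 0.0587) and without control siRNA replicate 2, and TEAD2 (-0.04) and TEAD4 (0.07) did not pass. Of 18 Hippo pathway genes tested, LATS2 among them again, 8 were lower (44.4%, against 13.5% of all genes tested) and 10 were not called by limma, with a median log2 fold change of -0.15. At an adjusted p under 0.05 the lower genes also included VGLL4 (-0.25), a cofactor that competes with YAP for TEAD, VGLL3 (-0.42), another TEAD cofactor, and MOB1A (-0.13), a partner of the LATS kinases. VGLL3 and MOB1A each kept the call in 1 of 6 fits that left out a library, and VGLL3 lost it by edgeR and by DESeq2. Without control siRNA replicate 1 the lower calls left were WWTR1, VGLL4 and AMOT, where 7.13% of all genes tested were lower. Of the genes not called, the kinase LATS1, the scaffold SAV1 and MOB1B also passed without agrin siRNA replicate 2 (limma adjusted p = 0.0104, 0.00682 and 0.00876). With other libraries left out their adjusted p went up to 0.350, 0.212 and 0.301. SAV1 passed as well when rescaled without mitochondrial and the 10 most abundant genes.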

How the data were processed

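RNA-seq was analysed in 6 libraries of BJ cells, 3 per group, grouped and numbered by the labels. Polyadenylated RNA was made into libraries with a TruSeq Stranded mRNA kit, per the labels' protocols. The submitters' processing notes name STAR 2.6.1d, SAMtools, HTSeq and edgeR with build hg38. No source used here gives the annotation, the strand setting, the gene filter or the scaling factors. The deposited table holds a signal per gene and library, called CPM by its name, whose columns sum to 1073190 to 1096530, so the authors scaled by something other than the listed total. Every value was a whole multiple of 1 step per column (100% of values, tolerance 0.01 of a read), which gave back whole reads. At this depth 3 reads correspond to 0.0681 to 0.0761 scaled CPM.

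A gene was tested if 3 or more libraries had a value of 1 or higher (13206 genes, including the 9 target genes). The limma test (version 3.58.1, R 4.3.3) compared log2 values after adding a pseudocount of 0.5, let the variance prior follow the mean level, had no further term, and was two-sided with Benjamini-Hochberg adjustment over all tested genes. Log2 fold changes are on that scale, and the pseudocount shrinks those of low genes. The test was written for CPM values and was kept for the scaled CPM. Running edgeR 4.0.16 on the recovered reads called 3731 genes, against 3788 by limma. All pairs of replicates differed by more than sampling noise, with a chi-square of 4.41 to 24.8 per degree of freedom. The gene set, the other lists (12 other signature genes, further cited targets, Hippo factors, paralogs and partners, cell markers) and the tests were chosen with earlier results of these data known. One gene of the further cited targets is not reported here and was left out of the counts of that list. Named genes were AGRN, the target genes, the 12 other signature genes, called genes among the further cited targets, Hippo factors and paralogs and partners, and AMOT, AMOTL1, YAP1, WWTR1 and TEAD1 to TEAD4; called cell markers and uncalled paralogs, partners and Hippo factors were named for their role after their values were seen. Coordinates and exon lengths came from GENCODE 29 on GRCh38, and promoter sequences from RefSeq on GRCh38.p14. Plots used Python 3.11.15 and matplotlib 3.10.9.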

Additional observations from a re-analysis of the deposited data

How the results depend on the processing

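The calls of NT5E, F3 and AXL as higher and of CTGF as lower held under all 17 alternatives (pseudocounts, filters, scalings, edgeR 4.0.16, DESeq2 1.42.0, no variance trend, the replicate block and leaving out each library). Leaving out 1 library in turn gave 3 higher target genes each time and 1 to 5 lower ones, 3 to 5 higher and 4 to 5 lower genes among the 12 other signature targets, and 1121 to 2538 higher and 940 to 2586 lower genes over the table. Over these fits the log2 fold change ran from -0.34 to -0.19 for AMOTL2, from -0.25 to 0.0051 for CRIM1, from -0.055 to 0.064 for CYR61, from -0.25 to -0.053 for PTPN14, from -0.23 to -0.11 for MYOF and from -0.067 to 0.082 for ASAP1. Quantile normalization gave 2 lower target genes, with AMOTL2 at -0.27, and put ASAP1 at -0.0095, and 13.6% of all genes tested were lower there. Rescaling with the mitochondrial transcripts and the top 10 genes by level left out gave 3 lower target genes, with AMOTL2 at -0.27 and MYOF at -0.20. It left 3 higher genes in the other signature list and put CYR61 at -0.012 and ASAP1 at -0.024. With it 17.1% of all genes tested were lower, and 41.1% of all calls were higher, against 52.9% without the rescaling. DESeq2 gave 3 lower target genes, with AMOTL2 at -0.24 and MYOF at -0.17, where 12.8% of all genes tested were lower. The edgeR fit put ASAP1 at -0.00025. The causes were not tested. The labels do not say that the replicate numbers pair the libraries. Deviations from the group means correlated across genes at -0.04, 0.17 and 0.20 for the same-numbered pairs. Agrin siRNA replicates 2 and 3 correlated best with the control siRNA library of their own number, and replicate 1 did not. So few libraries cannot decide whether the numbers mark pairs. With the replicate block 3 target genes were lower, with AMOTL2 at -0.24 and MYOF at -0.17, and 1905 genes were higher and 1775 lower over the table; TEAD1, WISP1, ADORA2A and ADA passed there and MOB1A did not. With 3 libraries a group the exact test of the CTGF to CYR61 ratio cannot pass 0.05; the difference in log2 ratio kept its sign when each library was left out.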

Other observations

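Other genes often cited as YAP and TAZ targets also moved both ways. Of 12 tested, 2 rose, 4 fell and 6 did not pass by limma (50% called, against 28.7% of all genes tested), with a median log2 fold change of -0.09. AREG, a ligand of the EGF receptor, rose to 6.60 ± 1.47 scaled CPM in the agrin siRNA group, against 1.54 ± 0.307 in the control siRNA group (SD, n = 3 each; log2 fold change 1.78, limma adjusted p = 9.42e-05). Its level was low, with 212 to 339 reads in the agrin siRNA libraries and 53 to 78 in the control siRNA libraries. CCND1, cyclin D1, rose to 353 ± 14.7 in the agrin siRNA group, against 299.6 ± 21.6 in the control siRNA group (SD, n = 3 each; log2 fold change 0.24, limma adjusted p = 0.0125), and its adjusted p was 0.0521 without control siRNA replicate 2. EDN1, the vasoconstrictor peptide endothelin, fell (-0.54, limma adjusted p = 0.00416), and its level was low, at 3.24 ± 0.349 and 4.93 ± 0.455 scaled CPM in the agrin siRNA and control siRNA groups (SD, n = 3 each). The thrombospondin THBS1 (-0.24), the Hedgehog factor GLI2 (-0.19) and the secreted protein FSTL1 (-0.18) were lower on the log2 scale, with limma adjusted p from 0.0395 to 0.0466. Each of these 3 calls held in only 1 of 6 fits that left out a library, with adjusted p up to 0.180 for THBS1 without control siRNA replicate 1.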
